A study of Mus musculus with 9 samples.

Results

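Nucleolar ribosome biogenesis genes encode the factors that transcribe ribosomal RNA, cut and modify it, and assemble it with ribosomal proteins. The 40 genes described here were given by name and matched to the deposited gene identifiers through the GENCODE M21 annotation. All 40 of them were found among the 54281 identifiers of the table, and all 40 were among the 15713 genes with enough counts to be tested. Their measured values played no part in the matching, although the list was drawn up with earlier results of these data known.

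The nucleolus forms around the ribosomal RNA genes, where RNA polymerase I makes a long precursor transcript. Small nucleolar ribonucleoproteins (snoRNPs) guide its methylation and pseudouridylation, the small subunit processome folds and cuts its small subunit part, and a separate set of factors builds the large subunit. Growing and dividing cells need many ribosomes, and alveolar macrophages, the resident phagocytes of the air spaces, can renew themselves by division in the lung.

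Mice were female, wild type and 12 weeks old, and their lung macrophages were collected by lavage of the air spaces with massage of the lung. No source used here names the strain. There were 3 groups of 3 libraries: mice that breathed air (the controls), mice taken 24 h after ozone, and mice taken 72 h after ozone. Ozone, an oxidant gas, was given to the whole body at 0.8 ppm for 3 h. All groups shared genotype, sex and age, and 1 air group serves both times after ozone. Whether the lavage of each library came from 1 mouse or from a pool is not stated, so the p-values measure only the spread between these 9 libraries.

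Total counts were 47095543 to 60248305 per library, and a member had between 451 and 28190 counts in any library. Levels are given as CPM (counts scaled to a common library size) after TMM normalisation. Markers of the labelled cell type were abundant: 16 alveolar macrophage genes summed to 35100 to 37720 CPM in air, 23930 to 33280 at 24 h and 27790 to 32890 at 72 h. Library 2 at 24 h and library 1 at 72 h stood apart. Their 8 B cell markers summed to 641 and 405 CPM against 0.516 to 5.31 in the other 7 libraries, their T cell markers to 512 and 57.8 against 2.45 to 10.6, and their erythroid markers to 2909 and 2510 against 12.2 to 855. Serous cavity macrophage markers other than Fn1 summed to 631 and 841 CPM there against 3.54 to 6.20, neutrophil markers to 113 and 89.9 against 10.01 to 24.1, and mitochondrial transcripts took 5.25% and 6.18% of counts against 2.71% to 3.07%. The 12 lung epithelium markers summed to 546 to 855 CPM over all 9 libraries, mostly Krt19, Epcam and Cdh1. Among them 5 at low levels (Cldn18, Krt8, Krt18, Ager and Aqp5) rose at 72 h against both air and 24 h (edgeR adjusted p under 0.05), from a summed 2.72 to 4.36 CPM in air and 4.62 to 7.55 CPM at 24 h to 23.8, 29.3 and 36.9 CPM in the 72 h libraries. The other 7 summed to 684.6 to 850.3 CPM in air, 602.5 to 791.1 at 24 h and 522.4 to 687 at 72 h. Of the 12 markers, 8 had a positive log2 difference between 72 h and 24 h and 4 a negative one. Besides the 5 called, Sftpb, Sftpc and Sftpa1 had positive differences of 0.89, 0.53 and 0.49. These did not pass (edgeR adjusted p = 0.101, 0.256 and 0.327). The part of these markers in the members' fall was not tested. Because library 2 at 24 h and library 1 at 72 h stood apart, the number of members called in each comparison is also given without them. Other counts below are over all 9 libraries unless stated. In bulk RNA, fewer cells of a type and less RNA per cell cannot be told apart.

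The members were moderately expressed and steady in air. Together they took 0.267% of the counts there, and the coefficient of variation over the 3 air libraries had a median of 6.68% and ranged from 0.741% for Rcl1 to 18% for Gar1. Per kb of the principal transcript, Npm1, the nucleolar histone and ribosome chaperone nucleophosmin, had the highest level at 192 CPM per kb. Fbl, the methyltransferase of box C/D snoRNPs, followed at 62.2, and Ncl (nucleolin, which binds precursor ribosomal RNA) at 54.4. The lowest levels were those of Polr1a, the largest subunit of RNA polymerase I, at 5.83 CPM per kb, Noc3l at 5.98 and Rrp12 at 6.19. Npm1 has processed pseudogene copies in the mouse genome, so its level is uncertain.

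The summed level of the 40 genes followed the order 72 h, air, 24 h. Air libraries 1 to 3 summed to 2717, 2588 and 2817 CPM, the 24 h libraries to 3255, 3027 and 2849 CPM, and the 72 h libraries to 2394, 2360 and 2413 CPM. The 3 groups did not overlap, and the 72 h libraries lay closest together (2389 ± 26.9 CPM against 2707 ± 115 in air and 3044 ± 204 at 24 h; mean ± SD, n = 3 each). Gene by gene, 37 of the 40 group means stood in that same order, as did 24.3% of all genes tested. The exceptions were Tcof1 and Polr1a, whose lowest mean was in air, and Pes1, whose highest mean was in air.

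**Figure D1:**
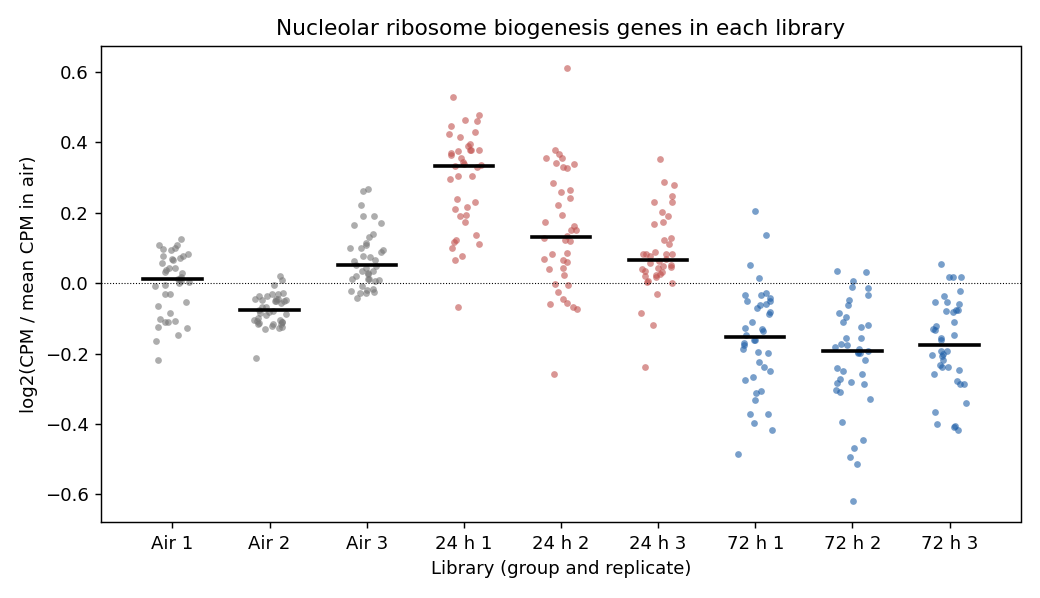
Log2 ratio of each gene's CPM to its mean in air (y axis) for the 9 libraries (x axis), with 1 point per gene and a black line at the median of the 40. The medians are 0.33, 0.13 and 0.07 in the 24 h libraries and -0.15, -0.19 and -0.18 in the 72 h libraries.

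Library 1 at 24 h was the highest. Its median log2 ratio to air over the 40 genes was 0.33, compared with 0.13 in library 2 and 0.07 in library 3 at that time. At 72 h the medians were -0.15, -0.19 and -0.18 in libraries 1 to 3. Over all genes tested, the median difference of log2 CPM from air lay between -0.02 and 0.02 in every ozone library. By its median, the 72 h library that stood apart in the markers was the nearest of its group to air, and the 24 h library that stood apart lay between the other two. Within groups the genes also varied together. Over the 780 pairs of members, the deviations from the group means had a median correlation of 0.52. This is a description over 9 libraries that share depth and composition. No such value was computed for other genes, so it does not set the members apart.

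At 24 h after ozone, 39 of 40 log2 differences from air were positive (38 with DESeq2 size factors or upper quartile scaling), but none of the 40 genes passed the test. Their median log2 difference was 0.18, against 0.01 over all genes tested. Without library 1 at 24 h the median was 0.09 and 32 of the 40 were positive. Few genes of any kind were called in this comparison: 0.00636% of those tested, which is 1 gene, at an adjusted p under 0.05 in edgeR's quasi-likelihood test. At an unadjusted p under 0.05, 16 members were higher and 0 lower, where 8.68% of all genes were higher and 6.05% lower. The members with such a p numbered 8 without library 1 of air, 7 without library 2 of air and 8 without library 1 at 24 h. For 10 members the lowest 24 h library was above the highest air library, where 10.4% of all genes were so placed. The smallest adjusted p-values belonged to Tcof1, Nhp2 and Noc4l. DESeq2, run as an alternative, called these 3 and no other member higher, and limma voom called 0. Over all genes DESeq2 called 580, 68.6% of them higher, and limma voom called 1. Without the 2 libraries that stood apart, edgeR again called 0 and the median was 0.20.

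Tcof1 encodes treacle, which brings RNA polymerase I and its cofactors to ribosomal DNA. Its level was 47.7, 52.9 and 55.9 CPM in air and 66.7, 79.8 and 66.6 CPM at 24 h. The groups did not overlap, with a log2 difference of 0.45 ± 0.10 (SE) and an adjusted p of 0.129. Nhp2, a core protein of box H/ACA snoRNPs, had 32.6, 34.0 and 38.7 CPM in air and 43.0, 42.7 and 42.6 CPM at 24 h, a log2 difference of 0.29 ± 0.07 (edgeR adjusted p = 0.129). Noc4l, a small subunit assembly factor, had 19.9, 20.99 and 23.5 CPM in air and 27.9, 27.2 and 25.2 CPM at 24 h, a log2 difference of 0.32 ± 0.07 (edgeR adjusted p = 0.139). In all 3 genes every 24 h library was above every air library, by less than the test with correction over all genes asks for.

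By 72 h the genes stood below air. Of the 40 log2 differences, 38 were negative (36 with DESeq2 size factors and 33 with upper quartile scaling), with a median of -0.18 against -0.01 over all genes, and 6 members fell (edgeR adjusted p under 0.05) while 0 rose. Over all genes 3.77% were called lower and 1.71% higher. Upper quartile scaling left 2 members called and DESeq2 size factors 3. The share of higher genes among all those called was 31.2% here, 44.3% with DESeq2 size factors, 64.2% with upper quartile scaling and 62.7% without the 2 libraries that stood apart. At an unadjusted p under 0.05 again 0 members were higher, where 8.93% of all genes were, and DESeq2 and limma voom called 0 higher. In 25 members every 72 h library was below every air library, where 22.1% of all genes were so placed. The 6 that fell were Nop10, Nhp2, Noc2l, Fbl, Nop16 and Ebna1bp2: proteins of both snoRNP classes and factors of the large subunit, with no polymerase I factor and no small subunit factor among them. Whether the roles differ from each other was not tested.

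Nop10, the smallest protein of the H/ACA core, fell most: it had 30.0, 27.7 and 32.4 CPM in air and 21.4, 21.01 and 22.5 CPM at 72 h, a log2 difference of -0.47 ± 0.08 (edgeR adjusted p = 0.0236). Fbl had 70.2, 68.1 and 85.0 CPM in air and 56.6, 54.7 and 56.4 CPM at 72 h, a log2 difference of -0.41 ± 0.09 (edgeR adjusted p = 0.0375). The corresponding values were -0.39 ± 0.07 for Nhp2 (edgeR adjusted p = 0.0243) and -0.39 ± 0.08 for Nop16 (edgeR adjusted p = 0.0388). Noc2l, a factor of early large subunit particles, had 115, 116 and 114 CPM in air and 95.5, 98.8 and 96.0 CPM at 72 h, a log2 difference of -0.25 ± 0.05 (edgeR adjusted p = 0.0291). Ebna1bp2, another large subunit factor, differed by -0.28 ± 0.06 (edgeR adjusted p = 0.0451). In each of the 6 genes all 72 h libraries were below all air libraries. The calls were close to the threshold: without the 2 libraries that stood apart 4 of the 6 were called, Nop16 and Ebna1bp2 being lost. That fit called 1122 genes, 62.7% of them higher, against 860 and 31.2% with all libraries. With 1 library left out in turn the number of members called was 0 in 7 of the 9 fits. It was 1 without library 1 of air and 7 without library 2 of the 24 h group.

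The difference between the 2 times after ozone was the widest. All 40 genes were lower at 72 h than at 24 h (39 with DESeq2 size factors or upper quartile scaling), with a median log2 difference of -0.36 against -0.03 over all genes. Of them 26 fell and 0 rose, where 12.8% of all genes tested were called lower and 5.39% higher (edgeR adjusted p under 0.05). At an unadjusted p under 0.05 again 0 members were higher, where 12.9% of all genes were, and DESeq2 and limma voom called 0 higher. In 31 members every 72 h library was below every 24 h library, a position held by 22.7% of all genes. This comparison shares its libraries with the 2 comparisons to air, so it is no independent count: it adds the height at 24 h to the depth at 72 h. Without the 2 libraries that stood apart, 21 of the 26 were called and no further member was. That fit called 2377 genes, 43.7% of them higher, against 2855 and 29.7% with all libraries. The number of members called was 7 without library 2 at 72 h, 12 without library 3 at 72 h and 14 without library 1 at 24 h. Nhp2, Nop10, Nop16, Fbl, Noc4l, Ebna1bp2 and Noc2l were called whichever of the 9 libraries was left out.

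**Figure D2:**
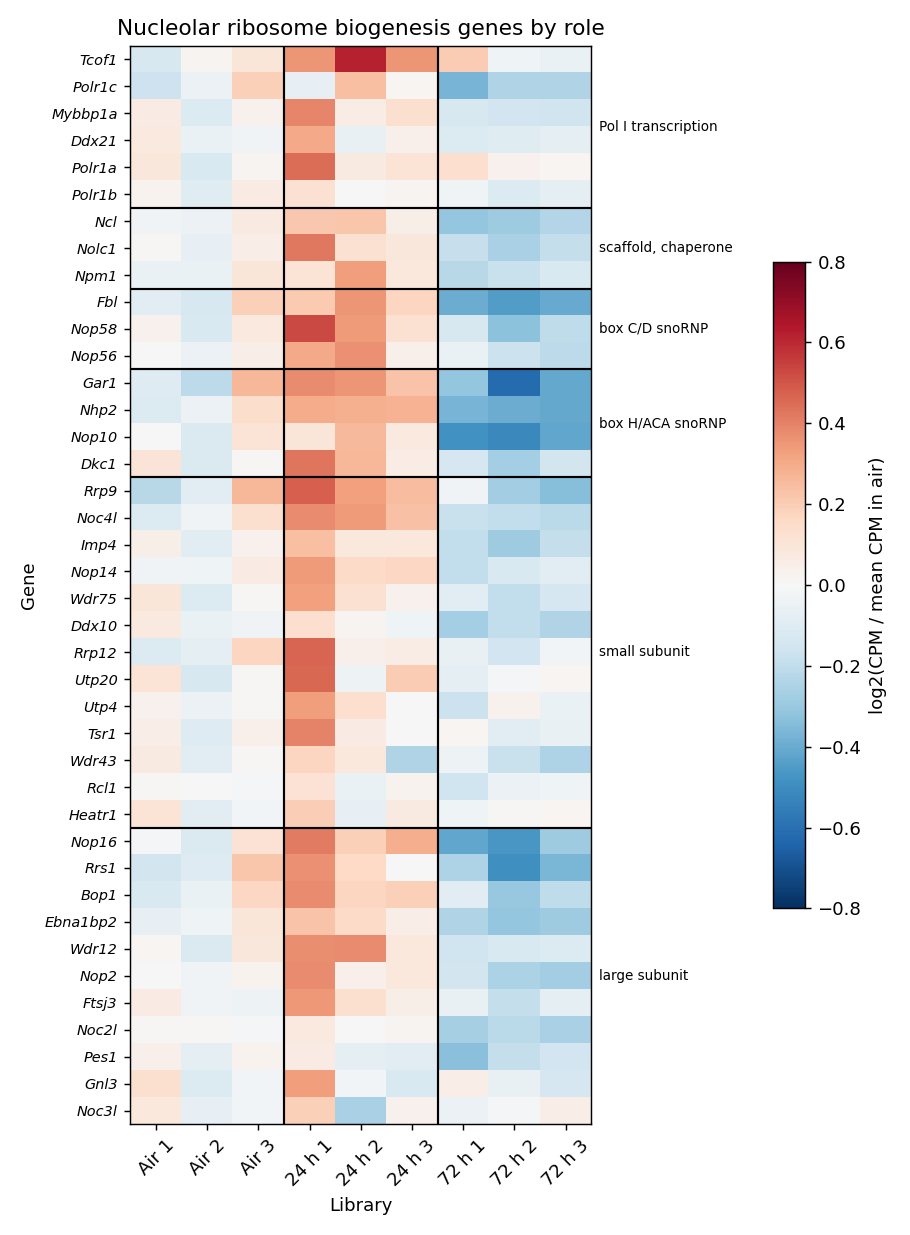
Log2 ratio of CPM to the mean in air (colour, red above and blue below air) for 40 genes (rows, grouped by role) in 9 libraries (columns). Library 1 at 24 h is the reddest column, and the box H/ACA rows are the bluest at 72 h, with medians of -0.34, -0.45 and -0.41 in the 3 libraries.

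Among the 6 genes of ribosomal RNA transcription, 2 fell from 24 h to 72 h, Tcof1 and Mybbp1a, and the median log2 difference was -0.27. Tcof1 was at 60.1, 50.9 and 50.2 CPM at 72 h, with 2 of these among the air values, and differed from 24 h by -0.40 ± 0.10 (edgeR adjusted p = 0.0288) and from air by 0.04 ± 0.10 (edgeR adjusted p = 0.817). It was the only one of the 26 genes that fell between the times without a 72 h mean below air. Mybbp1a, a nucleolar Myb-binding protein, had 204, 162 and 170.5 CPM at 24 h, then 142, 139.9 and 139 CPM at 72 h, a difference of -0.35 (edgeR adjusted p = 0.031). The most abundant gene of the group, the RNA helicase gene Ddx21, had 197, 180.1 and 183 CPM in air, 230.4, 179 and 192 CPM at 24 h, then 173, 175 and 177 CPM at 72 h. Its 72 h libraries were the lowest, but by a log2 difference from 24 h of -0.20 ± 0.09 that missed the threshold (edgeR adjusted p = 0.169). The polymerase I subunits Polr1a, Polr1b and Polr1c were not called in any comparison.

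All 3 abundant scaffold and chaperone genes fell between the times. Ncl had 436, 432 and 469 CPM in air, 518, 520.5 and 460.2 CPM at 24 h, then 359, 366 and 379.5 CPM at 72 h. Its 72 h libraries were below the other 6, while library 3 at 24 h lay within the air values, and the log2 difference between the times was -0.44 ± 0.07 (edgeR adjusted p = 0.00818). Npm1 had 302, 302 and 336 CPM in air, 338, 394 and 332 CPM at 24 h, then 268, 276 and 288 CPM at 72 h, a difference of -0.36 ± 0.08 between the times (edgeR adjusted p = 0.0231). Its highest value came from the 24 h library that stood apart, and without the 2 such libraries its edgeR adjusted p was 0.0642. Nolc1, a snoRNP chaperone, differed by -0.43 (edgeR adjusted p = 0.0148).

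The 3 box C/D proteins, which carry out ribose methylation of ribosomal RNA, all fell, with a median log2 difference of -0.56. Fbl, their enzyme, had 86.2, 95.2 and 84.0 CPM at 24 h, so that its 72 h libraries (54.7 to 56.6 CPM) lay far below, at a log2 difference of -0.66 ± 0.09 (edgeR adjusted p = 0.00595), a fold of 1.58. Nop58 had 48.4, 43.4 and 49.7 CPM in air, 68.1, 59.7 and 51.4 CPM at 24 h, then 43.2, 37.6 and 41.0 CPM at 72 h. Its 3 groups did not overlap, but the lowest air library (43.37 CPM) and the highest 72 h library (43.2 CPM) nearly met. The difference between the times was -0.56 ± 0.11 (edgeR adjusted p = 0.0115). Neither comparison with air passed (edgeR adjusted p = 0.224 at 24 h and 0.238 at 72 h). Nop56, another core protein of the particle, differed by -0.39 (edgeR adjusted p = 0.0192).

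The 4 box H/ACA proteins, which make pseudouridine in ribosomal RNA, had the lowest median of the 6 roles, -0.65, and all 4 fell. Gar1 had 11.9, 11 and 15.3 CPM in air, 16.5, 16.3 and 14.9 CPM at 24 h, then 10.3, 8.30 and 9.60 CPM at 72 h. This was the largest difference among the members, -0.76 ± 0.14 (edgeR adjusted p = 0.00993) or 1.69-fold, in a gene whose air libraries were also the most variable. Nhp2 had 27.1, 26.7 and 26.4 CPM at 72 h, which with its 24 h values (42.6 to 43.0 CPM) gave the smallest p of the members, at a difference of -0.68 ± 0.07 (edgeR adjusted p = 0.00366). Nop10 had 32.1, 35.9 and 31.7 CPM at 24 h and differed by -0.62 ± 0.08 (edgeR adjusted p = 0.0052). The pseudouridine synthase Dkc1, also a telomerase component, had 50.6, 45.2 and 39.2 CPM at 24 h, then 34.2, 31.1 and 33.9 CPM at 72 h, a difference of -0.44 ± 0.10 (edgeR adjusted p = 0.0183).

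**Figure D3:**
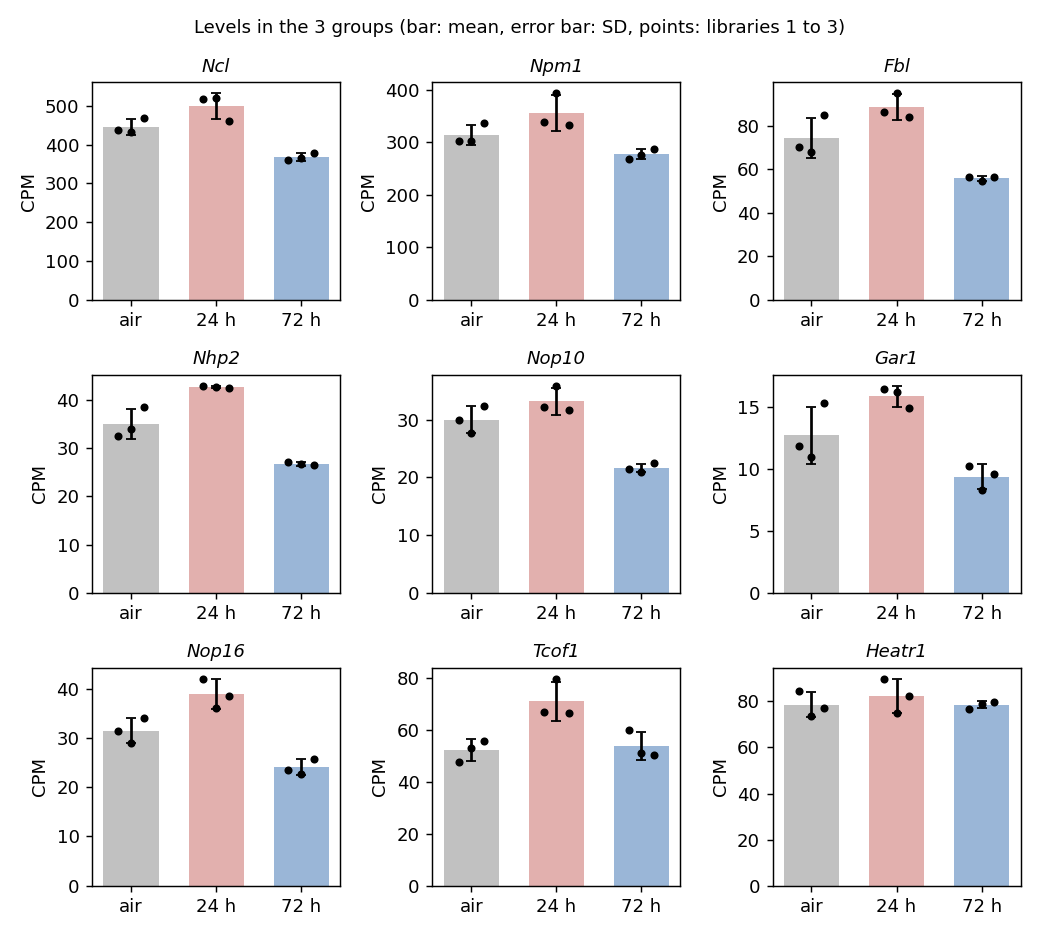
CPM (y axis, from 0) of 9 genes in air, at 24 h and at 72 h (bars, mean; error bars, SD; points, libraries 1 to 3). Fbl, Nhp2, Nop10, Gar1 and Nop16 stand lowest at 72 h with no overlap with the other groups, whereas Heatr1 overlaps in all 3.

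Small subunit factors were split. Of 13, 6 fell from 24 h to 72 h: Noc4l, Rrp9, Imp4, Nop14, Wdr75 and Ddx10, at log2 differences from -0.56 for Rrp9 to -0.28 for Ddx10, and the median of the 13 was -0.28. Noc4l was at 19.0, 18.7 and 18.4 CPM at 72 h, against 25.2 to 27.9 CPM at 24 h, a difference of -0.52 ± 0.07 (edgeR adjusted p = 0.00669). Heatr1, a large scaffold protein that acts at the start of precursor transcription and the most abundant of the 13, had 84.7, 73.8 and 77.3 CPM in air, 89.9, 75.0 and 82.5 CPM at 24 h, then 76.8, 79.0 and 79.6 CPM at 72 h. Its 3 groups overlapped, with a difference between the times of -0.07 ± 0.08 (edgeR adjusted p = 0.576). The other 6 genes, Utp4, Utp20, Wdr43, Rcl1, Rrp12 and Tsr1, had differences from -0.28 to -0.11 that did not pass. Wdr75 was the least stable of the 26 calls: it was lost in each of the 9 fits that left out 1 library.

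Large subunit factors fell in 8 of 11 cases, with a median of -0.40. Nop16, a nucleolar large subunit protein, had 31.4, 29.1 and 34.1 CPM in air, 42.1, 36.0 and 38.5 CPM at 24 h, then 23.6, 22.8 and 25.8 CPM at 72 h. The 3 groups were apart, and the difference between the times was -0.69 ± 0.09 (edgeR adjusted p = 0.0052), 1.62-fold. Ebna1bp2 had 48.9, 46.3 and 43.2 CPM at 24 h, then 35.3, 33.6 and 34.2 CPM at 72 h, a difference of -0.42 ± 0.06 (edgeR adjusted p = 0.00728). Noc2l, whose 24 h libraries (121, 114 and 116 CPM) overlapped its air libraries, differed by -0.28 ± 0.05 (edgeR adjusted p = 0.00834), while its difference of 24 h from air was 0.03 ± 0.05.

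Bop1, Pes1 and Wdr12 form 1 complex that processes large subunit RNA. Bop1 and Wdr12 fell between the times, by 0.45 and 0.42 on the log2 scale (edgeR adjusted p = 0.0165 for both). Pes1 had 107, 99.0 and 106 CPM in air, 109, 99.1 and 98.3 CPM at 24 h, then 82.8, 91.5 and 93.6 CPM at 72 h. Its 72 h libraries were below all others, but the difference from 24 h, -0.19 ± 0.07, missed the threshold (edgeR adjusted p = 0.0843). The methyltransferase genes Nop2 and Ftsj3 differed by -0.40 and -0.29 (edgeR adjusted p = 0.0184 and 0.0398), and the assembly factor gene Rrs1 by -0.55 (edgeR adjusted p = 0.0212). Noc3l, a partner of Noc2l, stood at 23.8 CPM in each of the 3 group means, with a difference of -0.00 ± 0.11 between the times, and Gnl3 (nucleostemin, a nucleolar GTPase) differed by -0.12 ± 0.12. Neither passed.

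**Figure D4:**
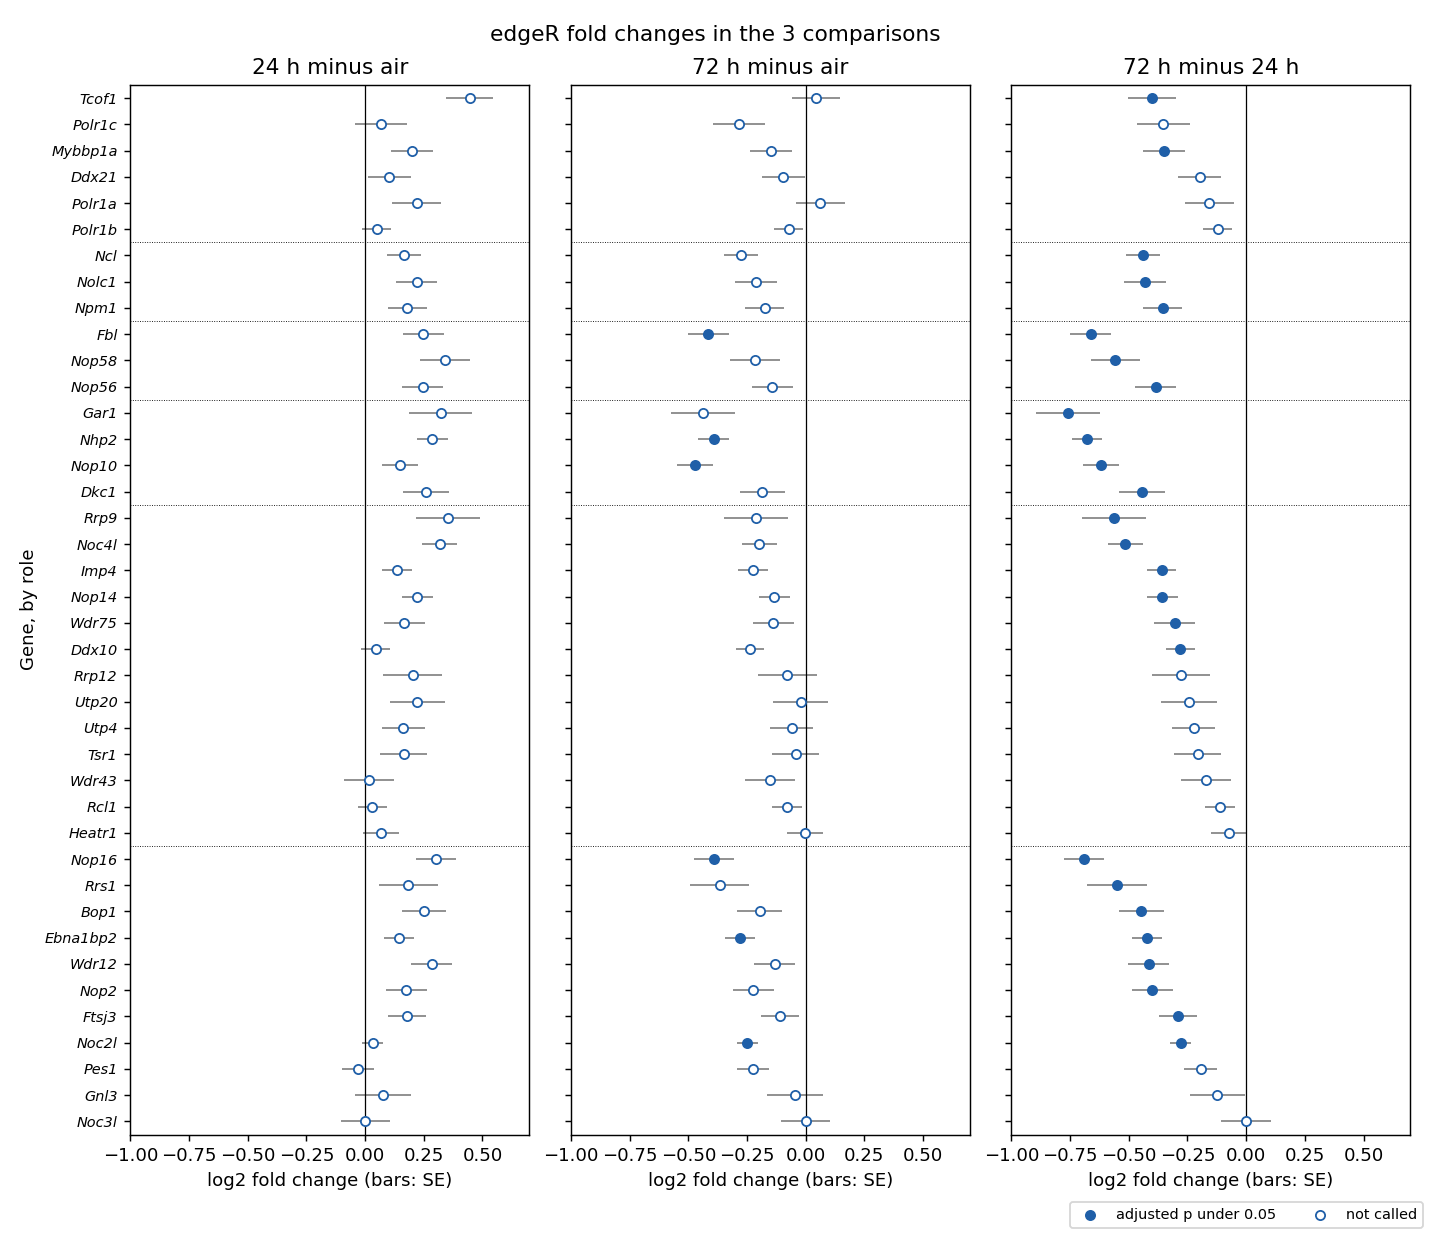
Log2 fold change (x axis, bars are SE) of the 40 genes (y axis, by role) for 24 h minus air, 72 h minus air and 72 h minus 24 h, with filled points for an adjusted p under 0.05 in edgeR. Filled points number 0, 6 and 26, and all of them lie below 0.

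Transcript length moved with these differences. The principal transcript had a median of 2649.5 bases in the 26 genes that fell between the times and 3713.5 bases in the other 14. Across the 40 genes, longer transcripts had differences nearer to 0 (Spearman's rho 0.565 between length and the 72 h minus 24 h log2 difference, 0.616 with coding length). Across all 12846 tested protein coding genes rho was 0.365. For 72 h against air rho was 0.601 in the members and 0.375 in all these genes. For 24 h against air it was -0.283 and -0.083. Genes are not independent replicates, and no p is given. Of genes with transcripts under 2000 bases, 28.1% were called lower at 72 h than at 24 h, with a median difference of -0.21, and 9 of the 12 members of that size fell, with a median of -0.56. Between 2000 and 6000 bases 11.2% of all genes were called lower, with a median of -0.03, and 16 of 24 members fell, with a median of -0.33. From 6000 bases up, 2.45% of all genes were called lower, and 1 of 4 members fell. That 1 was Ncl, whose annotated principal transcript of 8202 bases is much longer than its coding part of 2121 bases. In each of the 3 size classes the members' median was below that of all genes, and the part of length in the result was not tested.

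**Figure D5:**
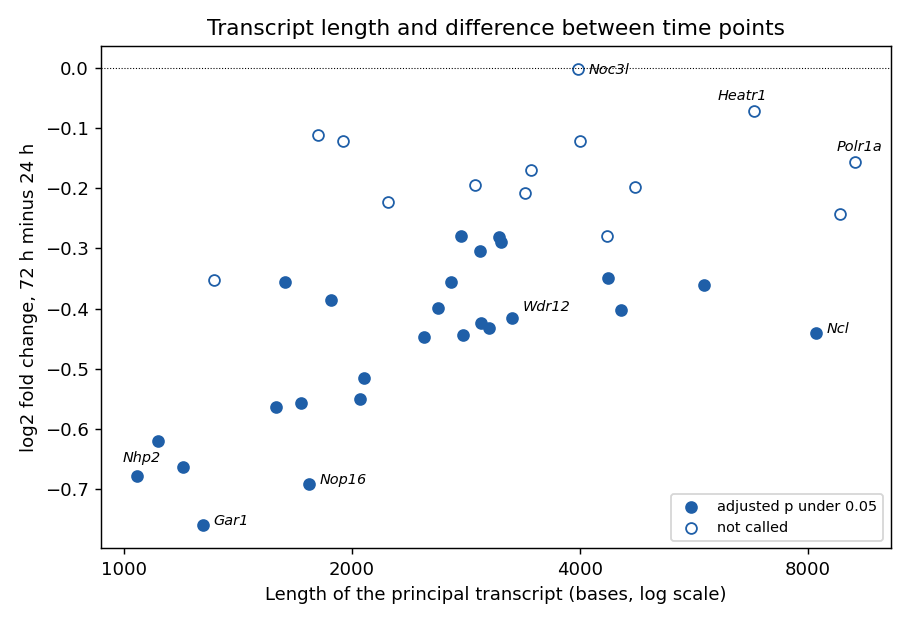
Length of the principal transcript in bases (x axis, log scale) against the log2 difference between 72 h and 24 h (y axis) for the 40 genes, filled where the edgeR adjusted p is under 0.05. The short genes Nhp2, Gar1 and Nop16 lie lowest, and Heatr1 and Polr1a at the long end lie at -0.07 and -0.16.

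Several members also carry snoRNA genes, whose products guide the same modification enzymes. On the same strand, 7 of the 40 members (17.5%) hold 21 snoRNA genes inside them. Of the 22028 protein coding genes of the annotation, expressed here or not, 1.18% do. Nop56 holds 5, Nop58 4, and Ncl, Gnl3 and Wdr43 3 each, with Tsr1 and Dkc1 making up the rest. Ncl, Nop56, Nop58 and Dkc1 fell between the times, and Gnl3, Wdr43 and Tsr1 did not pass. A gene on the other strand overlaps 17 of the 40 members, among them Nhp2, Noc2l, Dkc1 and Nop56. The sources used here do not say whether counting used strand, so reads of such pairs may not have been separated.

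Promoter windows from RefSeq (build GRCm38.p6, 250 bases before to 50 after the annotated start) were found for 34 of the 40 members, and 4 short motifs were searched on both strands. The palindrome CACGTG, the E-box bound by Myc and Max, was in 8 of 34 windows (23.5%) against 8.91% of 17492 protein coding genes. CCGGAAG, a core of ETS family sites, was in 12 of 34 (35.3%) against 12.95%. AAGATGGC, a YY1 core, was in 2 (5.88%) against 3.57%, and TATAAA in 2 (5.88%) against 14.8%. The E-box was in 3 of the 21 windows of genes that fell between the times and in 5 of the 13 others, and the ETS core in 7 of 21 and 5 of 13. These are matches of letters, not bound sites. The 17492 genes were not limited to those expressed here, whereas all the members were expressed, so the shares are not like for like. Shown here are the 150 bases before the RefSeq start of 3 genes that fell and of Heatr1, which was not called. This lets the same letters be seen in both kinds of gene. The stretches were picked for holding the E-box or the ETS core and few exon bases, so these matches are fixed by the choice. They run 5′ to 3′ on the gene's own strand, with the E-box and the ETS core (or its reverse complement) in capitals. Gar1 lies at chr3:129831397-129831546 (minus strand), Nolc1 at chr19:46075697-46075846 (plus strand), Nop2 at chr6:125131733-125131882 (plus strand) and Heatr1 at chr13:12395225-12395374 (plus strand).
Gar1: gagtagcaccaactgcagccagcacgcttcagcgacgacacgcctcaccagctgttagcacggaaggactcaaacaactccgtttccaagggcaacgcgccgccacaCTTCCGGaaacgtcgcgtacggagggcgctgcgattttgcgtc
Nolc1: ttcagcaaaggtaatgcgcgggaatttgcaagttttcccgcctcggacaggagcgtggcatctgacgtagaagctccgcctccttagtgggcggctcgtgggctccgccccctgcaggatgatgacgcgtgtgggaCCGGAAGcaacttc
Nop2: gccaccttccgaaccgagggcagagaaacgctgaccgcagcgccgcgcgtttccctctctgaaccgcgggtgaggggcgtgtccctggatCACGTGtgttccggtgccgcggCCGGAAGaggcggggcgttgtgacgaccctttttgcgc
Heatr1: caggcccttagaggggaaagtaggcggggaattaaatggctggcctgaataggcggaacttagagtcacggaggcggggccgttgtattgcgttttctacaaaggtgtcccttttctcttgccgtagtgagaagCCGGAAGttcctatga
The ETS core begins at position -43 in Gar1 (as its reverse complement), at -14 in Nolc1, at -38 in Nop2 and at -16 in Heatr1, counted from the annotated start. Nop2 also has the E-box, at -60. The Heatr1 stretch lies inside the gene as GENCODE M21 gives it, whose start is at 12395027, and its last 23 bases, ETS core included, are exon of an annotated transcript. The log2 difference between the times was -0.76 in Gar1, -0.43 in Nolc1, -0.40 in Nop2 and -0.07 in Heatr1.

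Other genes of the pathway fell between the times as well. Of 109 further ribosome biogenesis genes tested, 57 fell from 24 h to 72 h and 1 rose, with a median log2 difference of -0.28, and none was called between 24 h and air, where 22 were higher and 2 lower (Taf1b and Znrd1) at an unadjusted p under 0.05, against 8.68% and 6.05% of all genes. Between 72 h and air 14 fell and 0 rose, with a median of -0.19. Over all genes 12.8% fell and 5.39% rose between the times. At 72 h against air 3.77% fell and 1.71% rose. The 57 comprised 5 of 14 further polymerase I genes, 5 of 8 snoRNP assembly factors, 17 of 35 small subunit factors, 20 of 40 large subunit factors and 10 of 12 exosome genes, whose products trim ribosomal RNA ends. Ruvbl1 and Ruvbl2, the ATPases that help assemble snoRNPs, differed by -0.68 and -0.71 (edgeR adjusted p = 0.00579 and 0.00595). Snu13, which binds box C/D RNA, differed by -0.63 (edgeR adjusted p = 0.00599), and Nop9 by -0.34 (edgeR adjusted p = 0.00892).

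In the polymerase I list the called genes included Polr2h, Polr2f and Polr1d, small subunits shared between polymerases, at -0.58, -0.56 and -0.32 (edgeR adjusted p = 0.00756, 0.0139 and 0.0122), and Znrd1 at -0.35 (edgeR adjusted p = 0.0267). Small subunit examples were Bysl at -0.52, Ngdn at -0.43, Mphosph10 at -0.38 and Tbl3 at -0.34 (edgeR adjusted p from 0.00669 to 0.00882). For the large subunit, Eif6, which keeps it from joining the small subunit too early, was at -0.47, and the helicase genes Ddx27 and Ddx18 were at -0.39 and -0.36 (edgeR adjusted p from 0.00868 to 0.0103). Las1l, an RNA-cutting factor, was at -0.18 (edgeR adjusted p = 0.026). Exosc2, Exosc1, Exosc7 and Exosc8 of the exosome were at -0.55, -0.51, -0.50 and -0.45 (edgeR adjusted p from 0.00595 to 0.00889). The 1 gene that rose was Nvl, an ATPase of large subunit release, named here after its values were seen. It had 47.5, 45.7 and 46.8 CPM at 24 h, then 55.3, 53.3 and 54.3 CPM at 72 h, a difference of 0.22 ± 0.05 (edgeR adjusted p = 0.0196).

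Genes of the Myc network were listed separately. Myc binds the E-box with Max and is known to drive ribosome biogenesis, but not every gene of the list is such a driver. Myc itself had 56.1, 32.8 and 30.5 CPM in air, 43.2, 41.9 and 44.5 CPM at 24 h, then 58.0, 27.6 and 21.02 CPM at 72 h. The spread within air and within 72 h exceeded any difference between the groups, and the value for 72 h minus 24 h was -0.28 ± 0.40 (edgeR adjusted p = 0.687). The highest Myc value came from the 72 h library that stood apart. Of the 8 genes tested in this list, 2 fell between the times: Mlx by 0.19 and Mnt by 0.24 on the log2 scale (edgeR adjusted p = 0.0203 and 0.0496). Over all genes 12.8% fell. Mycn had too few counts to be tested.

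Genes of cell division fell between the times too. Of 18 such genes, 17 fell from 24 h to 72 h, with a median log2 difference of -0.74. None was called at 24 h against air, where the median was 0.55. At an unadjusted p under 0.05 in edgeR, 17 were higher there, as were 8.68% of all genes. Between 72 h and air 1 fell, and the median was -0.20. Over all genes 12.8% fell between the times and 3.77% between 72 h and air. Mcm6, Mcm3, Pcna and Mcm4, which act in DNA replication, differed between the times by -0.90, -0.79, -0.76 and -0.72 (edgeR adjusted p from 0.00406 to 0.00595). Library by library, the medians of the division genes relative to air were 0.53, 0.59 and 0.48 at 24 h, while those of the 40 members were 0.33, 0.13 and 0.07. At 24 h the members' median was highest in library 1, which was not the highest for the division genes. At 72 h the division medians were -0.06, -0.29 and -0.21. Those of the members were -0.15, -0.19 and -0.18, in the same order of libraries. In air the division medians were -0.25, 0.01 and 0.21 and the members' 0.01, -0.08 and 0.05, with library 3 highest in both. A link between the lists was not tested. Alveolar macrophage markers had a median of -0.29 at 24 h and -0.31 at 72 h against air, with 0 and 4 of 16 called lower. Of all genes 0.00636% and 3.77% were called lower there. Of the 16, 2 lay above air at 24 h and 3 at 72 h, among them Car4 and Ctsk at both times. The part of cell make-up in these differences was not tested.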

How the data were processed

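RNA of lung macrophages from 9 libraries (3 per group) was sequenced from stranded total RNA libraries, per the labels' protocols. The authors deposited estimated counts per gene, made with Salmon after Trimmomatic 0.39 and FastQC on build GRCm38.p6, per the submitters' processing notes, which also name DESeq2. The values are not scaled to library size. Exactly whole are 80.5% of all values, zeros included, and 54.9% of those above 0. No source used here gives other versions, the annotation release or the use of strand. GENCODE M21 matched 54107 of the 54281 identifiers. Totals were 47095543 to 60248305 counts per library.

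The counts were rounded and analysed in R 4.3.3 with edgeR 4.0.16. filterByExpr left 15713 genes. After TMM scaling, 1 robust quasi-likelihood fit over all 9 libraries gave the 3 contrasts. Benjamini-Hochberg adjustment ran over the 15713 genes, and "called", "rose" and "fell" mean an adjusted p under 0.05. SE is the size of the log2 fold change over √F. The common BCV (biological coefficient of variation) was 0.312. With 3 libraries against 3, an exact permutation test of a single value cannot go below 0.1, so none was used. Alternatives were DESeq2 1.42.0, limma voom (limma 3.58.1), other scalings, no filter, a replicate block and libraries left out. Transcript length is the median over APPRIS principal transcripts.

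The members, lists, tests and alternatives were chosen with earlier results of these data known. Genes named are members called in any comparison, in each role the member with the smallest p and the one with the highest CPM, and up to 4 called genes of each other list. Members outside this rule (Pes1, Noc3l, Gnl3, the polymerase I subunits, the other small subunit factors, Rcl1, Rrp12) and Myc were named after their values were seen. Of the listed pathway genes, 1 symbol found no match and 1 matched gene had too few counts.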

Additional observations from a re-analysis of the deposited data

Results flagged for a closer look

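In 26 genes the effect of ozone, taken against the same air libraries, differed between the 2 times by the test of the difference itself (72 h against 24 h, edgeR adjusted p under 0.05). In all 26 the mean at 24 h was above air, and in 25 the mean at 72 h was below air, Tcof1 being the exception. The 26 were picked by their fall between the times, which favours this order, so the order is no separate result. Over all 40 members, 39 log2 differences from air were positive at 24 h and 38 negative at 72 h. The difference between the times, as 72 h minus 24 h on the log2 scale, was -0.40 for Tcof1 and -0.35 for Mybbp1a among the polymerase I factors. Among the scaffold proteins it was -0.44 for Ncl, -0.36 for Npm1 and -0.43 for Nolc1. The box C/D proteins gave -0.66 for Fbl, -0.39 for Nop56 and -0.56 for Nop58, and the box H/ACA proteins -0.44 for Dkc1, -0.62 for Nop10, -0.68 for Nhp2 and -0.76 for Gar1. Small subunit factors gave -0.30 for Wdr75, -0.36 for Imp4, -0.56 for Rrp9, -0.36 for Nop14, -0.52 for Noc4l and -0.28 for Ddx10. Large subunit factors gave -0.45 for Bop1, -0.42 for Wdr12, -0.40 for Nop2, -0.69 for Nop16, -0.29 for Ftsj3, -0.42 for Ebna1bp2, -0.28 for Noc2l and -0.55 for Rrs1. Of the 26, 0 were called at 24 h against air and 6 at 72 h against air.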

How the results depend on the processing

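No call among the 40 genes changed direction in any alternative run. The members called lower at 72 h than at 24 h, 26 in number, were 7 to 24 when 1 library was left out, and their median log2 difference of -0.36 was -0.37 to -0.29 then and -0.30 under upper quartile scaling. The 6 called lower than air at 72 h became 3 with DESeq2 size factors, 2 with upper quartile scaling, 3 without a filter, 10 in DESeq2 and 0 to 7 with 1 library left out. Their median was -0.16 and -0.13 under the 2 scalings and -0.22 to -0.12 with 1 library left out. At 24 h against air, 3 members were called higher in DESeq2 and 0 in every fit with 1 library left out, with a median of 0.09 to 0.23. Over all genes, 1 was called at 24 h against air, 0 without a filter, 580 in DESeq2, 7 without the 2 libraries and 0 to 2 with 1 left out. The 860 called at 72 h against air became 506 with DESeq2 size factors, 299 with upper quartile scaling, 270 without a filter, 1890 in DESeq2 and 7 (without library 2 at 72 h) to 1625 (without library 2 at 24 h). The 2855 called between the times became 1696 without a filter and 340 (without library 2 at 72 h) to 2499. Upper quartile scaling moved the share of called genes that were higher from 31.2% to 64.2% at 72 h against air (44.3% with DESeq2 size factors), and from 29.7% to 47.2% between the times. Without the 2 libraries those shares were 62.7% and 43.7%. The cause was not tested. Among single genes, 1758 values stayed on their side of the threshold, 152 lost the call and 10 gained one.

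Same-numbered libraries had correlations of -0.613 to 0.475 in their deviations from the group means. Deviations in a group of 3 sum to 0, and the libraries that stood apart at 24 h and 72 h carry different numbers. These correlations therefore cannot decide whether replicate numbers pair the libraries. With the replicate block, 0 genes were called at 24 h against air, 35 at 72 h against air, with 0 members among them, and 1474 between the times, with 21 members. The lowest count of a member in any library was 451, and the number of libraries, 3 per group, limits the precision.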
